A study of Homo sapiens with 9 samples.

Results

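The tubulin genes examined were 4 α-tubulin genes (TUBA1A, TUBA1B, TUBA1C and TUBA4A) and 5 β-tubulin genes (TUBB, TUBB2A, TUBB2B, TUBB4B and TUBB6), together with TTC5, whose product recognises tubulin proteins while they are being made. These 10 of the 57500 genes in the count files were matched by name to the count files. All 9 libraries were made from HEK293T cells, which are an established line derived from human embryonic kidney, after incubation for 5 h. The cells received 10 µM HBC530, 10 µM MsOc3HBC or the DMSO vehicle, with 3 biological replicates per treatment. HBC530 is a fluorogenic ligand that binds the Pepper RNA aptamer without a covalent bond. MsOc3HBC is an HBC ligand with an added mesylate-bearing alkyl handle, through which it can alkylate RNA. The comparison asked whether transcript levels changed in cells that had met a reactive ligand, and all cells were of this single line.

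Microtubules are built from dimers of one α- and one β-tubulin, and vertebrate genomes hold several genes for each. Cells keep the amount of tubulin in check by an mRNA decay loop known as tubulin autoregulation. When free dimers accumulate, TTC5 binds the first residues of the nascent chain, Met-Arg-Glu followed by Ile in β-tubulin or by Cys in α-tubulin, and through SCAPER brings the CCR4-NOT deadenylase to the translated mRNA, which is then degraded. Drugs that depolymerise microtubules lower tubulin mRNA by this route, and drugs that stabilise them raise it.

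The coding starts are shown because the loop reads its signal from them. Each line holds the first 30 coding bases, taken from the GENCODE release 44 transcripts, with the first 4 codons in capitals.
TUBA1A: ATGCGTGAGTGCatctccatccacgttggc
TUBA4A: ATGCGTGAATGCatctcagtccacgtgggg
TUBB: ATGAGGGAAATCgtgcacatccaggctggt
TUBB2A: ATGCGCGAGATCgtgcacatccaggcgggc
TUBB2B: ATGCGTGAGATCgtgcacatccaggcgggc
TUBB4B: ATGAGGGAAATCgtgcacttgcaggccggg
TUBB6: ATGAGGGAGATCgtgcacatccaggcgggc
TTC5: ATGATGGCTGATgaagaggaagaagtcaag
TUBG1: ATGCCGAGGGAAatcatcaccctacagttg
TUBE1: ATGACCCAGTCGgtggtcgtacaggtcggc
TUBA1B and TUBA1C carry the same 30 bases as TUBA1A. Among 19818 protein-coding genes, the first 4 codons read Met-Arg-Glu-Ile in 10 genes and Met-Arg-Glu-Cys in 9 genes, which is 0.0959% of all of them, and every one is named as a β- or α-tubulin gene. All 9 tubulin genes examined have such a start. TTC5 itself, the γ-tubulin gene TUBG1 and the ε-tubulin gene TUBE1 do not.

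The genes lie on 6 chromosomes of GRCh38. TUBA1B (chr12:49127782-49131397, minus strand), TUBA1A (chr12:49184796-49189324, minus strand) and TUBA1C (chr12:49188736-49274603, plus strand) are neighbours, and TUBA4A is at chr2:219249711-219278170 on the minus strand. TUBB2A (chr6:3153669-3157526) and TUBB2B (chr6:3224261-3231730) are also neighbours on the minus strand, whereas TUBB (chr6:30720201-30725426, plus strand) lies apart on the same chromosome. TUBB4B (chr9:137241213-137243707) and TUBB6 (chr18:12307669-12344320) are on the plus strand and TTC5 (chr14:20256558-20305994) is on the minus strand. The start codon of each lies in exon 1 of its annotated transcript.

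Near-identical copies limit how well reads could be given to some of these genes. The coding sequences of TUBB2A and TUBB2B were 98.2% identical, and 61.8% of the 100-base exonic windows of TUBB2A and 52.2% of those of TUBB2B occurred elsewhere in annotated exons. The corresponding share was 16.7% for TUBA1B, 11.0% for TUBA1A and 8.80% for TUBA1C, at most 2.43% for TUBA4A, TUBB and TUBB4B, and no such window was found for TUBB6 and TTC5. As only unique hits were counted, the values of TUBB2A and TUBB2B rest on the parts that differ and are uncertain. Exons on the opposite strand also overlap, over 490 bases between TUBA1A and TUBA1C and 627 bases between TUBA4A and STK16. Further overlaps are 837 bases between TUBB6 and AFG3L2 and 174 bases between TUBB2B and PSMG4. The mean count was 1302 for STK16 against 347 for TUBA4A. That of AFG3L2 was 60.8% of the TUBB6 count, and that of PSMG4 was 33.0% of the TUBB2B count. The strand setting of the counting is not given in the sources used here, so reads of such stretches cannot be told apart.

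The libraries held between 28056929 and 62205366 counts on genes. On the first principal component of log2 CPM (counts scaled per library to a common total), which took 37.3% of the variance over 18041 genes, replicate 3 of HBC530 (36.9) and replicate 3 of MsOc3HBC (48.8) stood apart from the other 7 libraries (between −20.3 and −4.28). Replicate 3 of HBC530 (34963314 counts) and of MsOc3HBC (28056929 counts) also had the lowest depth. Their TMM scaling factors were 0.944 and 0.955, against 1.00 or more in the other libraries. The 8 HEK293T markers examined (VIM, KRT8, KRT18, NEFL, NEFM, INA, PAX2 and LHX1) were detected in every library, at 2.09 CPM or more. Of 6 genes of other cell types, PTPRC, CD3E, PECAM1, ALB and MYH7 stayed at or below 0.110 CPM, and COL1A1, a collagen gene of fibroblasts, was at 19.4 to 35.2 CPM. In bulk RNA, fewer cells expressing a gene and less RNA per cell cannot be told apart.

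Levels of different genes were compared per length, as TPM (transcript counts per length, scaled to the same total in every library). TUBB, the widely expressed class I β-tubulin, ranked 63 among all genes by its mean TPM over the 9 libraries. In DMSO it was the most abundant of the 10, at 1821 ± 47.8 TPM (SD, n = 3). TUBB4B, a broadly expressed β-tubulin also used in cilia, followed at 1060.3 ± 9.29 TPM, and TUBA1B, the main α-tubulin of many dividing cells, at 1052 ± 97.8 TPM. The libraries of TUBB4B and TUBA1B overlapped, so their order was within the spread. TUBA1C was at 279 ± 5.62 TPM, TUBB2B at 156 ± 3.44 TPM, TUBA1A at 131 ± 3.13 TPM, TUBB6 at 119.9 ± 2.33 TPM and TUBB2A at 75.6 ± 2.52 TPM. At the low end were TTC5, at 15.5 ± 0.934 TPM, and TUBA4A, an α-tubulin whose encoded protein ends without the usual tyrosine, at 6.38 ± 0.580 TPM. No neighbours in this order overlapped other than TUBB4B and TUBA1B. TUBB alone gave 38.7% of the summed TPM of the 9 tubulin genes, TUBB4B gave 22.6% and TUBA1B gave 22.4%.

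**Figure D1:**
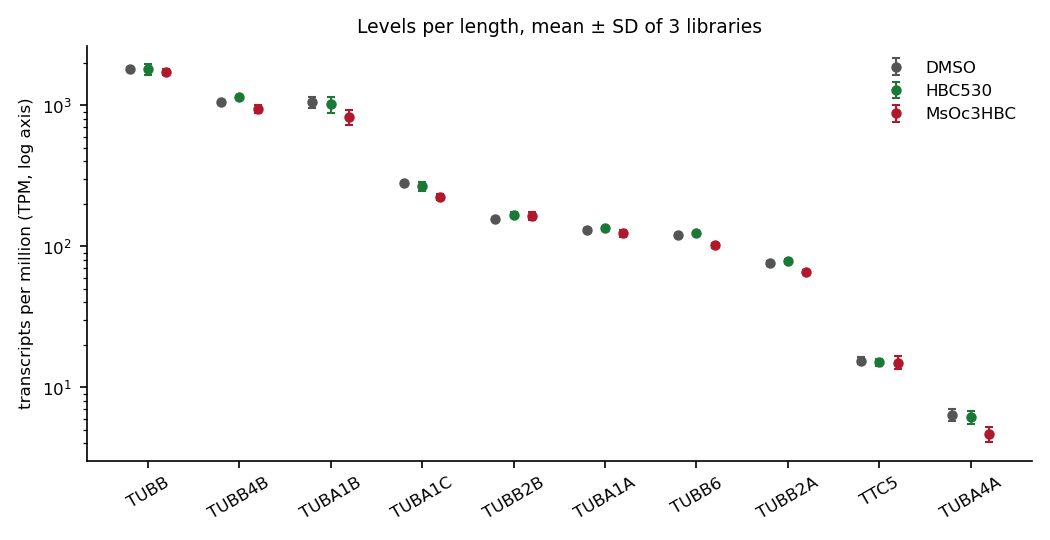
Levels of the 10 genes per length (TPM, log axis) in DMSO, HBC530 and MsOc3HBC, in the order of the DMSO means, with points for the means and bars for the SD of 3 libraries. TUBB was the most abundant in all 3 treatments and TUBA4A the least abundant.

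Within a gene, libraries were compared in CPM scaled with TMM factors, given here for replicates 1 to 3 in turn. Among the α-tubulin genes, TUBA1B was at 958, 1133 and 1205 CPM in DMSO, 1123, 1138 and 1051 CPM in HBC530, and 862, 924 and 857 CPM in MsOc3HBC. All 3 MsOc3HBC libraries lay below all 6 others. TUBA1C, a close relative of TUBA1B, was at 362, 374 and 395 CPM in DMSO, 378, 368 and 385 CPM in HBC530, and 295, 305 and 339 CPM in MsOc3HBC. Again the MsOc3HBC libraries were the 3 lowest, whereas those of DMSO and HBC530 overlapped. TUBA4A was at 6.81, 7.46 and 8.55 CPM in DMSO, 7.47, 7.94 and 7.61 CPM in HBC530, and 5.58, 5.98 and 5.56 CPM in MsOc3HBC. Its MsOc3HBC libraries lay below all others and within a narrow range, on counts between 149 and 327 per library. TUBA1A, best known from developing neurons, was at 129, 128 and 137 CPM in DMSO, 138, 130.0 and 151 CPM in HBC530, and 119, 119 and 146 CPM in MsOc3HBC. The treatments overlapped for TUBA1A, and replicate 3 was the highest library of each treatment.

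Among the β-tubulin genes, TUBB was at 1788, 1740.0 and 1822 CPM in DMSO, 1847, 1816 and 1852 CPM in HBC530, and 1649, 1695 and 1881 CPM in MsOc3HBC. Its MsOc3HBC replicates 1 and 2 were the lowest of the 9 and its replicate 3 was the highest. TUBB4B was at 640, 656 and 662 CPM in DMSO, 691, 681 and 833 CPM in HBC530, and 562, 550.3 and 699 CPM in MsOc3HBC. Its HBC530 libraries lay above those of DMSO, and replicates 1 and 2 of MsOc3HBC lay below them. TUBB6, a divergent class V β-tubulin, was at 137, 146 and 148 CPM in DMSO, 149.8, 149.6 and 169 CPM in HBC530, and 123, 121 and 133 CPM in MsOc3HBC. The 3 treatments of TUBB6 did not overlap, with HBC530 highest and MsOc3HBC lowest. TUBB2A, a class II β-tubulin, was at 38.5, 37.5 and 38.1 CPM in DMSO, 40.1, 39.6 and 44.2 CPM in HBC530, and 34.3, 32.5 and 36.0 CPM in MsOc3HBC. It followed the same order without overlap. TUBB2B, the near-identical partner of TUBB2A, was at 99.0, 99.97 and 99.6 CPM in DMSO, 109, 109 and 119 CPM in HBC530, and 105, 107 and 112 CPM in MsOc3HBC. Its libraries of both ligands lay above those of DMSO and overlapped each other.

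**Figure D2:**
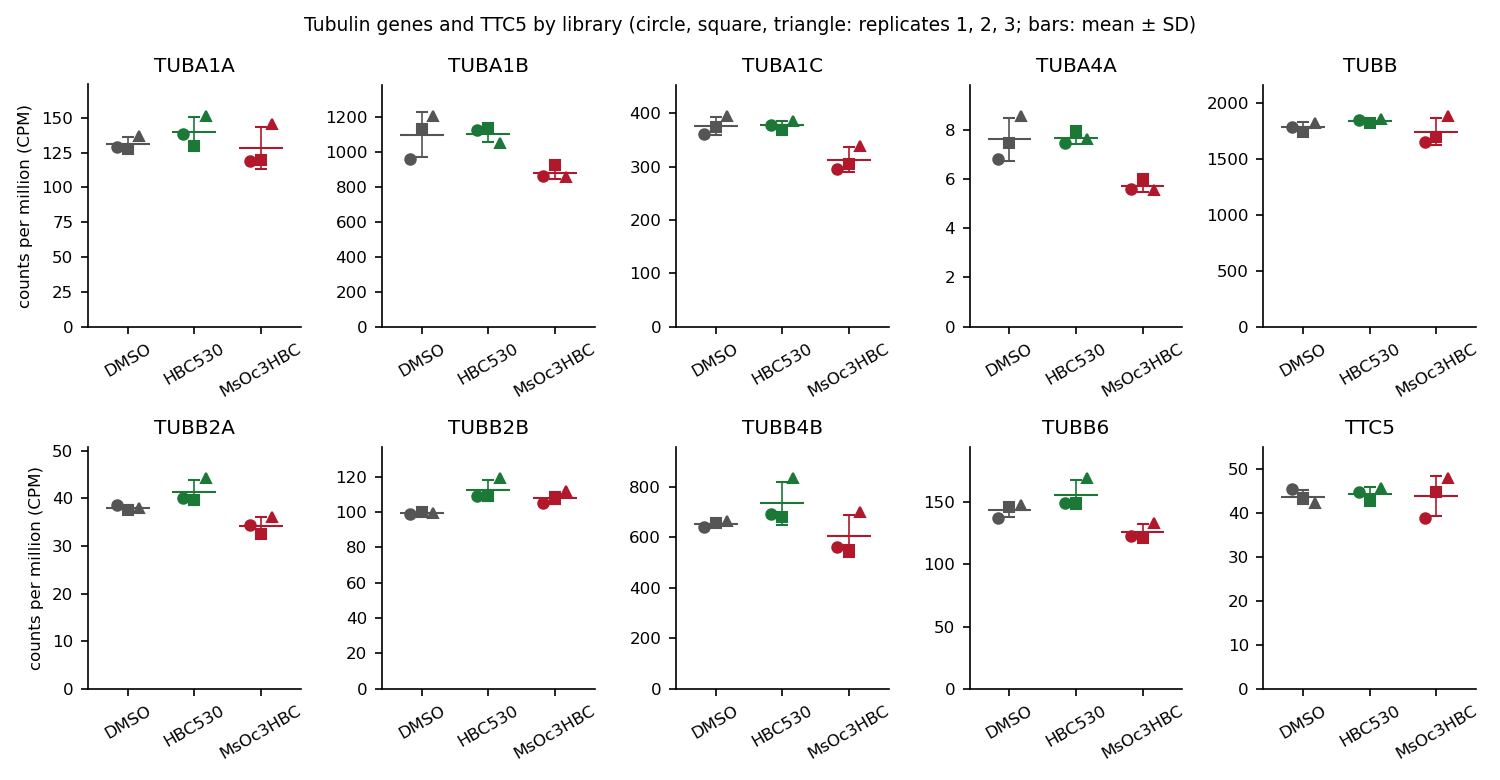
CPM of each gene in each of the 9 libraries (vertical axes from 0), with circles, squares and triangles for replicates 1, 2 and 3, and horizontal lines and bars for the mean ± SD of 3 libraries. The MsOc3HBC libraries of TUBA1B, TUBA1C, TUBA4A, TUBB2A and TUBB6 lie below all HBC530 and DMSO libraries, and those of TTC5 overlap the others.

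HBC530 compared with DMSO showed no tubulin gene that passed the test. With edgeR and Benjamini-Hochberg adjustment, 0 of the 10 genes had an adjusted p under 0.05 (0.0170% of the 17684 genes tested did), and 0 had an unadjusted p under 0.05 (5.07% of all genes). DESeq2 also called 0 of the 10. All 9 fitted log2 differences were above 0, with a median of 0.09 beside 0.0046 over all genes tested. TUBA1B, TUBA1C and TUBA4A were nearest to 0, and the log2 differences of the α genes were 0.0078 ± 0.10 (SE) for TUBA1B, 0.0022 ± 0.08 for TUBA1C, 0.011 ± 0.11 for TUBA4A and 0.09 ± 0.09 for TUBA1A. TUBB2B (0.17 ± 0.08, adjusted p = 0.751 with edgeR) and TUBB4B (0.17 ± 0.10, adjusted p = 0.751) had the largest. TUBB4B was at 0.08 without replicate 3 of HBC530, and at 0.06 once trends with GC content and transcript length had been taken out, below TUBB2B (0.09), TUBA1A (0.08) and TUBB6 (0.07). Of the 5 β genes, 4, TUBB being the exception, did not overlap between the groups and were higher in HBC530, where 7.17% of all genes were. The 95% intervals of all 9 genes lay within 0.5 of 0 on the log2 scale, as did those of 59.7% of all genes tested. The median was 0.05 without replicate 3 of HBC530 and 0.02 after removal of those trends.

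MsOc3HBC compared with DMSO gave lower fitted values for 8 of the 9 tubulin genes, none of which passed the test. The adjusted p was under 0.05 for 0 of the 10 genes with edgeR (0.154% of the 17514 genes tested were called) and for 0 with DESeq2. The median log2 difference of the 9 genes was −0.15, beside 0.012 over all genes tested. It was −0.29 for the 4 α genes and −0.11 for the 5 β genes, a contrast between the families that was not tested. The log2 difference was −0.41 ± 0.12 (SE) for TUBA4A, 0.752 times the DMSO level, with a 95% interval from −0.68 to −0.14 and an adjusted p of 0.304 with edgeR. It was −0.32 ± 0.11 for TUBA1B, 0.803 times (interval from −0.56 to −0.08, adjusted p = 0.356), and −0.26 ± 0.10 for TUBA1C, 0.833 times (interval from −0.47 to −0.05, adjusted p = 0.382). These 3 α genes had an unadjusted p under 0.05 and a lower level, as did 4.78% of all genes tested. TUBA1A (−0.032 ± 0.10) and TUBB (−0.031 ± 0.10) were close to 0.

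Of the other β genes, TUBB6 was at −0.19 ± 0.09 (adjusted p = 0.474 with edgeR), TUBB2A at −0.15 ± 0.09 (adjusted p = 0.567) and TUBB4B at −0.11 ± 0.11 (adjusted p = 0.745). The value of TUBB4B was −0.23 without replicate 3 of MsOc3HBC, −0.049 without replicate 2 and −0.064 without replicate 1. TUBB2B was the exception in direction, at 0.12 ± 0.09 with an adjusted p of 0.618. The groups did not overlap for 5 of the 9 genes, TUBA1B, TUBA1C, TUBA4A, TUBB2A and TUBB6, which were lower in MsOc3HBC, as were 8.96% of all genes, and for 1, TUBB2B, which was higher, as were 9.35% of all genes. Without replicate 3 of MsOc3HBC the median of the 9 genes was −0.23 and 0 of the 10 genes were called. Both comparisons with DMSO used the same 3 DMSO libraries.

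The ligands differ by the reactive handle and were given at the same dose for the same time, and 1 pair of ligands was compared. All 9 tubulin genes were lower in MsOc3HBC than in HBC530, with a median log2 difference of −0.27 beside 0.017 over all genes tested. It was −0.30 for the α genes and −0.27 for the β genes. Without a replicate block, 0 of the 10 genes had an adjusted p under 0.05 with edgeR, where 0.00% of the 17397 genes tested did. DESeq2 called 0 of the 9 genes to which it gave an adjusted p and gave none to TUBA4A. There were 5 genes with an unadjusted p under 0.05 and a lower level in MsOc3HBC, as did 4.22% of all genes. These were TUBA4A (−0.42 ± 0.10, 0.746 times the HBC530 level), TUBA1B (−0.32 ± 0.09, 0.799 times), TUBB6 (−0.31 ± 0.09, 0.807 times), TUBB2A (−0.27 ± 0.09, 0.830 times) and TUBA1C (−0.27 ± 0.09, 0.832 times), each with an adjusted p of 0.643. The groups did not overlap for these 5 genes, and 8.50% of all genes were lower without overlap.

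Across genes, deviations from the treatment means correlated between same-numbered libraries of the 2 ligands, with r of 0.17, 0.37 and 0.43. Pair 1 was no higher than replicate 3 of HBC530 against DMSO (0.17). Such deviations are not independent within a treatment, so replicate 3, which stood apart with both ligands, also affects the other pairs. The labels give only a replicate number, and calls with the block rest on that pairing. Each MsOc3HBC library was set against its same-numbered HBC530 library. Of the 9 tubulin genes, 8 were lower in all 3 pairs, as were 22.9% of all genes tested, and TUBB was lower in 2. The ratios were steady for several genes. TUBB4B had log2 ratios of −0.30, −0.31 and −0.25 in pairs 1 to 3, although its libraries spread widely within each treatment. TUBA4A had −0.42, −0.41 and −0.45, and TUBB6 had −0.28, −0.30 and −0.34. TUBA1A ranged from −0.21 to −0.05.

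With the replicate number as a block in the edgeR fit, 6 of the 10 genes passed an adjusted p of 0.05 and were lower in MsOc3HBC, as did 6.90% of all genes tested. These were the α genes TUBA1B (−0.32 ± 0.04, adjusted p = 0.00184), TUBA1C (−0.27 ± 0.05, adjusted p = 0.00515) and TUBA4A (−0.42 ± 0.09, adjusted p = 0.00996) and the β genes TUBB4B (−0.28 ± 0.04, adjusted p = 0.00274), TUBB6 (−0.31 ± 0.05, adjusted p = 0.00266) and TUBB2A (−0.27 ± 0.06, adjusted p = 0.00972). TUBA1A (−0.13, 95% interval from −0.24 to −0.02), TUBB (−0.08, from −0.18 to 0.02) and TUBB2B (−0.05, from −0.16 to 0.05) did not pass.

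The exonic GC content of the tubulin genes was between 50.2 and 59.6%, against 40.3% for TTC5. After removal of the trends with GC content and length in the blocked fit, the median of the 9 genes was −0.20 and 3 genes passed, TUBA1B (adjusted p = 0.0141), TUBA1C (adjusted p = 0.0227) and TUBB6 (adjusted p = 0.0342), where 0.885% of all genes tested passed and were lower. TUBB2A (adjusted p = 0.0568), TUBB4B (adjusted p = 0.0635) and TUBA4A (adjusted p = 0.0905) then missed the threshold. With replicate 3 of both ligands left out and no block, TUBA1B, TUBA1C, TUBA4A, TUBB2A, TUBB4B and TUBB6 were called lower by edgeR, with adjusted p from 0.00134 to 0.0215, as were 6.00% of the genes tested, and the median of the 9 was −0.30. Among the markers of other cell types, the summed level of the 6 genes, nearly all of it COL1A1, was 25.2 to 35.2 CPM in HBC530 and 19.4 to 28.1 CPM in MsOc3HBC, and COL1A1 was lower in the blocked fit (−0.31, adjusted p = 0.00914, and 0.103 after removal of the trends). Among the HEK293T markers, NEFL was also lower in the blocked fit (−0.18, adjusted p = 0.0490, and 0.0952 after removal of the trends), and the others did not pass. The summed level of the 8 HEK293T markers was 713 to 807 CPM in HBC530 and 684 to 809 CPM in MsOc3HBC. The part of these markers in the tubulin values was not tested.

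**Figure D3:**
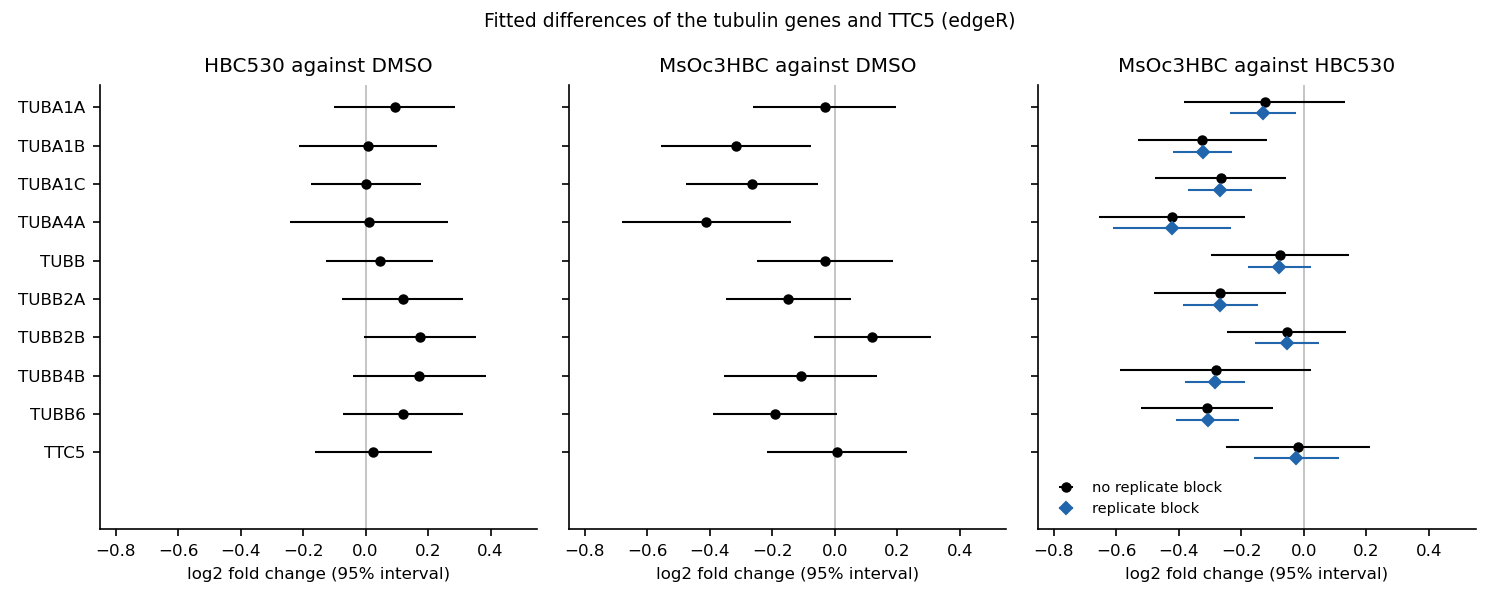
Fitted log2 fold changes of the 10 genes in the 3 comparisons (edgeR), with 95% intervals as bars, and for MsOc3HBC against HBC530 also the fit with the replicate block as diamonds. The intervals of TUBA1B, TUBA1C, TUBA4A, TUBB2A and TUBB6 lie below 0 in both fits of the ligand comparison, those of TUBA1A and TUBB4B only with the block, and the values of TTC5 are close to 0.

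TTC5, the reader of the nascent tubulin chain, did not pass the test in any comparison. It was at 45.4, 43.6 and 42.3 CPM in DMSO, 44.8, 42.7 and 45.8 CPM in HBC530, and 38.9, 44.8 and 47.9 CPM in MsOc3HBC. The treatments overlapped, and the MsOc3HBC libraries were the most spread. The log2 difference was 0.024 ± 0.08 (95% interval from −0.16 to 0.21) for HBC530 against DMSO, 0.0065 ± 0.10 (from −0.22 to 0.23) for MsOc3HBC against DMSO and −0.018 ± 0.10 (from −0.25 to 0.21) for MsOc3HBC against HBC530. With the block, the last was −0.023 with an adjusted p of 0.860.

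Summed over the 9 genes, tubulin took 0.419 to 0.453% of all counts in the DMSO libraries, 0.435 to 0.454% in HBC530 and 0.388 to 0.402% in MsOc3HBC. The 3 MsOc3HBC shares, which use no scaling factor, were the lowest of the 9 libraries. Scaled with TMM factors, summed tubulin was 4158 to 4514 CPM in DMSO, 4438 to 4612 CPM in HBC530 and 3756 to 4208 CPM in MsOc3HBC. On that scale MsOc3HBC overlapped DMSO, with its replicate 3 (4208 CPM) above replicate 1 of DMSO (4158 CPM). The summed α-tubulin level was 1455 to 1745 CPM in DMSO, 1595 to 1647 CPM in HBC530 and 1282 to 1354 CPM in MsOc3HBC, without overlap between MsOc3HBC and the others. The summed β-tubulin level was 2680.4 to 2769 CPM, 2795 to 3018 CPM and 2474 to 2861 CPM, and here MsOc3HBC overlapped both. Per length, β-tubulin exceeded α-tubulin by a ratio of 2.21 ± 0.193 in DMSO, 2.33 ± 0.165 in HBC530 and 2.56 ± 0.205 in MsOc3HBC (SD, n = 3), with overlapping ranges. Of 50 tubulin pseudogenes in the count files, 13 had a mean of at least 1 count, and all 50 together amounted to 15.2 to 18.3 CPM in a library.

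Among the genes whose levels followed the summed tubulin level most closely over the 9 libraries were ISG20L2, CDC20, BYSL and CLN6. Their Pearson r was 0.981, 0.976, 0.974 and 0.973, among the 5 highest of 9267 genes outside the tubulin family with at least 10 CPM, and the libraries share treatment, depth and composition. Among the members, TUBA1B and TUBA4A (r = 0.969) and TUBB2A and TUBB6 (r = 0.960) were the most alike, and TUBA1B and TUBB2B the least (r = −0.19).

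The further genes of the tubulin family, 13 in all, were mostly low, and 6 had a mean of at least 1 CPM. None passed the test without the block (0 of 9 tested against DMSO and 0 of 8 between the ligands). TUBE1, the ε-tubulin of centrioles, was at 23.7, 20.8 and 22.4 CPM in DMSO, 22.8, 21.8 and 24.0 CPM in HBC530, and 27.7, 30.9 and 32.3 CPM in MsOc3HBC, all above the other 6 libraries. Its log2 difference was 0.44 ± 0.10 against DMSO (adjusted p = 0.171 with edgeR) and 0.41 ± 0.10 against HBC530 (adjusted p = 0.643). With the block the latter passed (0.40, adjusted p = 0.00284, and 0.0425 after removal of the GC and length trends). TUBE1 lacks the start read by the autoregulation loop. TUBB4A, which has the start, was lower by the blocked fit (−0.22, adjusted p = 0.0278) but not after the removal of those trends (adjusted p = 0.475). TUBG1, the γ-tubulin of microtubule-organising centres, lacks the start. It was likewise lower by the blocked fit (−0.15, adjusted p = 0.0416), and its adjusted p was 0.211 after that removal. TUBB3 has the start, and TUBG2 and TUBD1 lack it. These genes were at −0.14 ± 0.18, −0.039 ± 0.12 and 0.08 ± 0.10 for MsOc3HBC against HBC530 without the block and passed in no fit. A link between the start and the direction was not tested.

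The machinery around tubulin was examined through 5 gene lists. Of their 73 genes tested between the ligands, 0 were called by edgeR without the block. With the block 14 were, 9 lower and 5 higher in MsOc3HBC, where 11.4% of all genes tested were called in either direction. After removal of the GC and length trends in the blocked fit, 4 of the 73 were called, where 1.74% of all genes were. PFDN1 and MAP1S were also among those 14. PFDN6 and MZT2B, named after their values were seen, were not (adjusted p = 0.0372 and 0.0141 after that removal). Of SCAPER and 10 subunits of CCR4-NOT, 0 of 11 passed in any comparison without the block, with median log2 differences of −0.06, −0.04 and 0.06 for HBC530 against DMSO, MsOc3HBC against DMSO and MsOc3HBC against HBC530. SCAPER, the adaptor between TTC5 and the deadenylase, was at 10.8 to 12.8 CPM in DMSO, 12.2 to 13.8 CPM in HBC530 and 13.1 to 14.6 CPM in MsOc3HBC. Its log2 difference for MsOc3HBC against DMSO was 0.27 ± 0.11 (adjusted p = 0.413 with edgeR), without overlap. CNOT3, a subunit of CCR4-NOT, was at −0.23 ± 0.10 against HBC530 and passed with the block (adjusted p = 0.0139), lower in MsOc3HBC. It did not pass after the removal of the GC and length trends (adjusted p = 0.216). The deadenylase subunit CNOT6, named after its values were seen, was higher with the block (adjusted p = 0.0110, and 0.0952 after that removal).

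The folding list comprised the subunits of the chaperonin TRiC, prefoldin and the tubulin cofactors, with 19 of 20 genes matched and tested. None passed without the block, and the medians were 0.05, −0.025 and −0.049 in the same order of comparisons. The 2 genes named by rule were the prefoldin subunit PFDN2, at 0.35 ± 0.14 for MsOc3HBC against DMSO (adjusted p = 0.412 with edgeR), and the β-tubulin cofactor TBCA, at 0.35 ± 0.14 (adjusted p = 0.428). In both, replicate 3 of either ligand was far above its other libraries. TBCA was at 304, 287 and 402 CPM in HBC530 and 347, 335 and 497 CPM in MsOc3HBC. With the block, TBCA was higher in MsOc3HBC than in HBC530 (adjusted p = 0.00648, and 0.334 after removal of the GC and length trends), and PFDN1, TBCD and ARL2, named after their values were seen, were lower (adjusted p = 0.0355, 0.0249 and 0.0456). PFDN1 also passed after that removal (adjusted p = 0.0257), whereas TBCD (adjusted p = 0.1496) and ARL2 (adjusted p = 0.482) did not.

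The tubulin modifying enzymes, 15 of 16 tested, gave 0 calls without the block. TTLL1, which adds glutamate chains to tubulin, was at 5.19 to 6.35 CPM in DMSO, 7.22 to 9.19 CPM in HBC530 and 7.58 to 11.0 CPM in MsOc3HBC, so that both ligands lay above the vehicle. Its log2 difference was 0.43 ± 0.13 for HBC530 (adjusted p = 0.751 with edgeR) and 0.55 ± 0.16 for MsOc3HBC (adjusted p = 0.298). With the block, the adjusted p of TTLL1 was 0.364 for HBC530 and 0.0495 for MsOc3HBC against DMSO. In that MsOc3HBC fit 149 of the 17514 genes tested were called. AGTPBP1, which removes glutamates, was at 0.28 ± 0.09 for MsOc3HBC against HBC530 and passed with the block (adjusted p = 0.00976), not after the removal of the trends (adjusted p = 0.0793). TTLL12, named after its values were seen, was lower with the block (adjusted p = 0.00885, and 0.439 after that removal).

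Microtubule-associated proteins and stathmins, 18 of 19 tested, also gave 0 calls without the block. MAP1S, a microtubule-binding protein of the MAP1 family, was at 75.8, 102 and 111 CPM in DMSO, 105, 117 and 101 CPM in HBC530, and 77.6, 79.3 and 73.1 CPM in MsOc3HBC. Its difference between the ligands, −0.49 ± 0.09, passed with the block (adjusted p = 0.000311) and after removal of the GC and length trends (adjusted p = 0.0141), whereas against DMSO the groups overlapped. MAP1B was above DMSO with both ligands, at 0.26 ± 0.11 for HBC530 (adjusted p = 0.751 with edgeR) and 0.38 ± 0.09 for MsOc3HBC (adjusted p = 0.202). In the nucleation list, 10 of 10 tested and 0 called without the block, TUBGCP2 and TUBGCP3, both subunits of the γ-tubulin ring complex, had opposite signs between the ligands. TUBGCP2 was at −0.23 ± 0.08 (adjusted p = 0.00919 with the block) and TUBGCP3 at 0.22 ± 0.08 (adjusted p = 0.0202 with the block), and after the removal of the trends their adjusted p were 0.132 and 0.0522. With the block, STMN3 and TPX2 were lower and CLASP2 higher, all named after their values were seen (adjusted p = 0.0314, 0.0446 and 0.0335). None of the 3 passed after removal of the trends (adjusted p = 0.657 for STMN3, 0.0517 for TPX2 and 0.529 for CLASP2). Across all genes tested, 4.54% were higher in MsOc3HBC by the blocked fit.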

How the data were processed

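Per the labels and methods, the authors used Trimmomatic 0.36 to trim the reads of poly(A)-selected RNA, STAR 2.5.2b for alignment to GRCh38 and featureCounts for assigning unique gene hits (Subread 1.5.2). The deposited files hold raw counts of 57500 genes per library. The signal columns of the 2 tables that the authors deposited hold the same counts divided by 1 size factor per library, and served only for gene names. Their fold change and p columns hold the authors' own comparisons and were not used. Of 56410 gene IDs found in GENCODE release 44, 99.96% overlapped their position there.

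Groups followed the sample labels. Each pair of treatments, with 3 libraries each, was compared by edgeR 4.0.16 under R 4.3.3 (filterByExpr, TMM factors, quasi-likelihood F test, Benjamini-Hochberg adjustment over all genes tested). The p-values set each treatment difference against the spread between these replicates. In the blocked fits they set it against the spread left after the replicate number is fitted. CPM used TMM factors and TPM the exonic lengths of the count files. Alternatives were DESeq2 1.42.0, RLE factors, no filter, all 9 libraries in 1 fit, the replicate number as a block, removal of GC and length trends (natural splines, 5 degrees of freedom) and each library left out. The replicate numbers of the labels were checked by correlating, across genes, deviations from the treatment means. Between the ligands r was 0.17, 0.37 and 0.43, so blocked values are given there. Only the fits without a block were run on simulated data, with 200 changed genes and independent libraries. The blocked and trend-removed fits were not. The members and lists were chosen with earlier results of these data known. Named were the members, other tubulin genes with a mean of 1 CPM or more, the called genes and the 2 smallest p of each further list, and the 5 genes most like summed tubulin, 1 of which is not reported here. One folding gene was not matched by name.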

Additional observations from a re-analysis of the deposited data

Results flagged for a closer look

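TUBB2A and TUBB6 lay in opposite directions from DMSO with the 2 ligands, every HBC530 library being above and every MsOc3HBC library below all DMSO libraries. They were flagged for this separation, so the ligand difference below comes from the same libraries and gives no independent support. Without overlap, 7.17% of all genes were higher in HBC530 than in DMSO, and 8.96% were lower in MsOc3HBC than in DMSO. The share of genes that met both conditions was not computed, and both used the same DMSO libraries. Neither gene passed against DMSO with edgeR. The adjusted p was 0.751 for both with HBC530, and 0.567 (TUBB2A) and 0.474 (TUBB6) with MsOc3HBC. Removal of GC and length trends took the log2 difference of HBC530 against DMSO from 0.12 to 0.02 for TUBB2A and to 0.07 for TUBB6. Of the 100-base exonic windows of TUBB2A, 61.8% occurred elsewhere in annotated exons. The difference between the ligands was also fitted. For TUBB2A it was −0.27 ± 0.09 on the log2 scale (adjusted p = 0.643 with edgeR, and 0.00972 with the replicate block). For TUBB6 it was −0.31 ± 0.09 (adjusted p = 0.643, and 0.00266 with the block). After removal of GC and length trends in the blocked fit the adjusted p were 0.0568 and 0.0342.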

How the results depend on the processing

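The number of members called was 0 against DMSO for both ligands under every alternative run. Between the ligands it was 0 without the block and 6 with the replicate block, 3 with the block and GC and length trends removed, and 6 with replicate 3 of both ligands left out. It stayed at 0 with DESeq2 (which gave TUBA4A no adjusted p), RLE factors, no filter, all 9 libraries, the trends removed without the block and each library left out in turn. Against DMSO the r of same-numbered libraries was from −0.11 to 0.17, reaching the value of ligand pair 1 (0.17), and the block called 0 members. The median of the 9 tubulin genes kept its sign under all alternatives run. Signs turned only for fitted differences close to 0. For HBC530 against DMSO, TUBA1B was −0.0032 without a filter and −0.018 with the trends removed (−0.083 to 0.081 over left-out libraries), TUBA1C was −0.0040 with DESeq2, −0.00020 with RLE factors and −0.0099 without a filter (−0.027 to 0.039), and TUBA4A was −0.045 with the trends removed (−0.061 to 0.11). For MsOc3HBC against DMSO, left-out libraries gave −0.14 to 0.014 for TUBA1A, −0.091 to 0.0044 for TUBB and −0.061 to 0.084 for TTC5, which was −0.0042 with DESeq2 and −0.0057 without a filter. Between the ligands, TUBB2B was 0.019 with the trends removed and 0.018 with the block too, and TTC5 ranged from −0.083 to 0.065 over left-out libraries. The cause was not tested. Over all genes, edgeR called 3, 27 and 0 genes in the 3 comparisons (HBC530 against DMSO, MsOc3HBC against DMSO, MsOc3HBC against HBC530), DESeq2 called 22, 129 and 28, and edgeR with the block called 16, 149 and 1990. TUBA4A, with 149 to 533 counts per library, had the widest intervals among the tubulin genes against DMSO.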
